A study of Drosophila melanogaster with 6 samples.

Results

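LTR retrotransposons are the mobile elements that copy themselves through RNA much as retroviruses do. This is an account of their counts in larval intestines of Drosophila melanogaster with (EcRi) or without (control) knockdown of the ecdysone receptor EcR in enterocytes, the absorptive cells of the gut. Members were chosen from the genome annotation alone: every annotated insertion whose element name belongs to a fixed list of LTR families. This gave 1235 insertions of 48 families, out of 5736 annotated element insertions of 128 families, in a table of 24278 entries of which 17895 are genes.

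An LTR element carries genes for a capsid protein and for an enzyme complex with reverse transcriptase and integrase, between 2 direct terminal repeats from which its RNA is made. Fly elements fall into the superfamilies Copia (here copia and 1 other family), BEL-Pao (roo, 3S18, diver, diver2 and Max-element, which the annotation writes as Max) and Gypsy (all other listed families). Some Gypsy elements hold an envelope gene and resemble retroviruses. In the soma their RNA is known to be cut by the siRNA pathway around Dcr-2 and AGO2, and in ovaries the piRNA pathway around piwi represses them. Copies of a family share most of their sequence, so insertions of a family are not independent of each other.

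The EcRi larvae carried Tub-LexA, LexO-spok RNAi, Tub-GAL80ts and UAS-EcR RNAi together with Myo1A-GAL4, the enterocyte driver. Control larvae carried the same transgenes without Myo1A-GAL4 by the crosses in the methods, although their titles also name myo1a, and this was not settled. Both genotypes thus lacked ecdysone synthesis through the hairpin against spok, which encodes an enzyme of ecdysone synthesis, and both were moved from a permissive to a restrictive temperature to start the hairpins. The paper states that EcR without its hormone represses genes, and that EcR knockdown releases its targets from this repression. In the paper EcRi thus stands for ecdysone target genes switched on in enterocytes, not off. Fathers of the 2 genotypes came from different stocks, so the driver and the other paternal chromosomes cannot be told apart. Insertions are those of the reference annotation, and whether each stock carries each of them is not known here. A copy missing from a genotype and a copy without RNA therefore cannot be told apart. Whole intestines gave 3 libraries per genotype, which the labels number as separate biological replicates. In whole tissue, fewer cells of a type and less RNA per cell cannot be told apart.

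Total counts were 200890663 to 246255664 per library. Values below are CPM, counts scaled to a common library size with the TMM method, whose factors were 1.21 to 1.30 in EcRi and 0.713 to 0.845 in control libraries. EcR itself had 28.8, 28.7 and 32.0 CPM in EcRi and 45.6, 28.3 and 26.6 CPM in control intestines. The genotypes overlapped (log2 fold change -0.17 ± 0.21 SE, adjusted p = 0.517), so EcR counts over the whole tissue did not check the labels. Of all genes tested, 31.1% were higher and 30.6% lower. The enterocyte marker list (5 of 7 lower) summed to 9619 to 14862 CPM in EcRi against 56091 to 100330 CPM in control libraries. Most of that sum was the protease gene Jon65Aiv, with a mean of 6385 CPM in EcRi and 59899 CPM in control libraries, while Myo31DF, a further marker of the list, was not called (-0.06 ± 0.10 SE). Foregut and hindgut markers were higher in 3 of 5 genes (43.7 to 63.0 CPM in EcRi against 23.0 to 30.0 CPM in control libraries), and Malpighian tubule markers were higher in 2 and lower in 4 of 6. Markers of visceral muscle were lower in 5 of 6 and of trachea higher in 6 of 8 genes, while none of 8 haemocyte markers was called. Of 8 fat body markers, Fbp1 was higher, FASN1 lower and 6 not called. Some of them varied widely between replicates. Lsp1alpha had 9.70, 7.30 and 12.4 CPM in EcRi and 292, 11.6 and 2.07 CPM in control libraries. The part of all these markers in the results on LTR elements was not tested.

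LTR insertions took a small share of the counts: 0.0398%, 0.0605% and 0.039% in EcRi and 0.0639%, 0.0689% and 0.0215% in control libraries. Of the 1235 insertions, 797 had a count in any library and 438 had none. The low-count filter left 285 insertions and 44 of the 48 families for testing. The median tested LTR insertion had 0.119 CPM, against 9.11 CPM for the median tested entry of the table, so most members were measured at low depth.

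Gypsy insertions together had 68.9, 69.0 and 60.6 CPM in EcRi against 144, 134 and 117 CPM in control intestines. All EcRi values lay below all control values (log2 difference -0.99). Most of that gap was in the families accord and flea, which together averaged 41.6 ± 4.70 CPM in EcRi against 105 ± 11.2 CPM in control intestines (SD, n = 3 each). Without both, a choice made after the values were seen, Gypsy insertions had 25.2, 24.1 and 24.4 CPM in EcRi and 28.2, 29.0 and 24.1 CPM in control intestines, with overlap (log2 difference -0.14, exact permutation p = 0.4). BEL-Pao insertions summed to 64.6, 71.4 and 57.6 CPM in EcRi against 52.3, 54.5 and 48.1 CPM in control intestines, every EcRi value being the higher (log2 difference 0.32). The differences of the whole Gypsy and BEL-Pao sums both had p = 0.1 in the two-sided exact permutation test over the 6 libraries, the smallest p that 3 against 3 can give. As percentages of all counts, without TMM scaling, the Gypsy sums were 0.00835, 0.00868 and 0.00787 in EcRi and 0.012, 0.0114 and 0.00835 in control libraries, and the genotypes then overlapped. Those of BEL-Pao were 0.00783, 0.00899 and 0.00747 in EcRi and 0.00439, 0.00461 and 0.00343 in control libraries, a log2 difference of 0.97 in place of 0.32.

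Copia elements gave most of the counts but no separation. Their sum was 195, 341 and 182 CPM in EcRi against 566, 627 and 136 CPM in control intestines, where control 3 lay below all EcRi libraries (log2 difference -0.67, exact permutation p = 0.4). All LTR insertions together followed copia, with 328, 481 and 300 CPM in EcRi against 762, 816 and 301 CPM in control intestines (log2 difference -0.66, exact permutation p = 0.3). Scaled to total counts alone, that difference was -0.0038 (exact permutation p = 1). Without copia the sums were 134, 141 and 118 CPM in EcRi and 196, 189 and 165 CPM in control intestines, with no overlap (log2 difference -0.49, exact permutation p = 0.1). As percentages of all counts those sums overlapped, at 0.0162, 0.0177 and 0.0154 in EcRi and 0.0164, 0.0160 and 0.0118 in control libraries. Leaving out accord and flea as well turned the direction, to 90.0, 95.6 and 82.2 CPM in EcRi and 80.5, 83.6 and 72.3 CPM in control intestines (log2 difference 0.18, exact permutation p = 0.2). For scale, the 4501 insertions of other elements summed to 201, 207 and 203 CPM in EcRi and 197, 193 and 165 CPM in control intestines. Set against those other elements within each library, the Gypsy sum was 0.343, 0.333 and 0.298 times as large in EcRi and 0.727, 0.695 and 0.709 times as large in control intestines (exact permutation p = 0.1). The same ratio for BEL-Pao overlapped between genotypes (exact permutation p = 0.2).

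**Figure D1:**
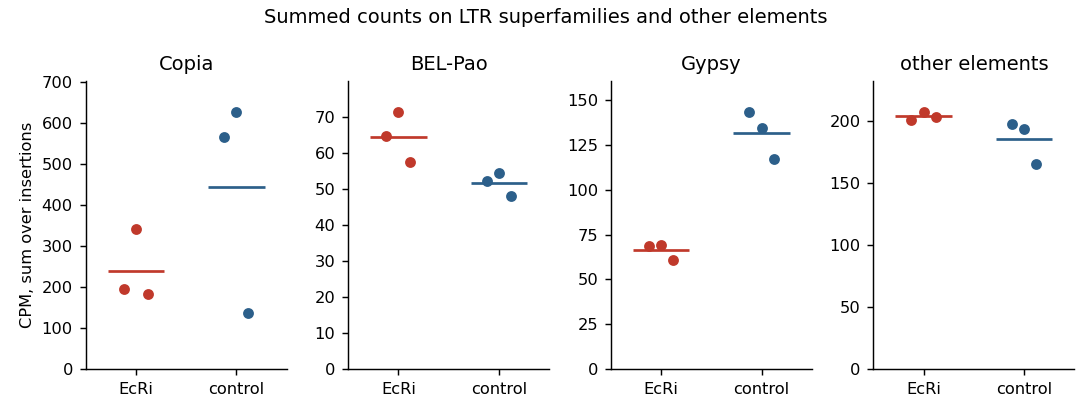
Sum of TMM-scaled CPM over all insertions of the Copia, BEL-Pao and Gypsy superfamilies and over other elements, 1 point per library (3 EcRi, 3 control), lines at group means, axes from 0. Gypsy sums were 60.6 to 69.0 CPM in EcRi and 117 to 144 CPM in control libraries, while Copia sums overlapped because control 3 was at 136 CPM.

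Family totals were tested by summing the insertions of each family and fitting the families together with all genes. Of 44 LTR families tested, 6 were higher in EcRi, 10 lower and 28 not called at an adjusted p of 0.05, with a median log2 fold change of -0.11. Among all 11492 entries of that fit, 31.1% were higher and 30.4% lower, so both LTR shares, 13.6% and 22.7%, lay below the background of this comparison. The families called lower were all of the Gypsy superfamily: accord, gypsy5, gypsy, gypsy12, Burdock, mdg1, Idefix, accord2, flea and gypsy10. Those called higher were Stalker3, micropia, mdg3, HMS-Beagle and Quasimodo of Gypsy and 3S18 of BEL-Pao. Gypsy families were most of those tested, so their number among the calls does not set the superfamily apart.

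**Figure D2:**
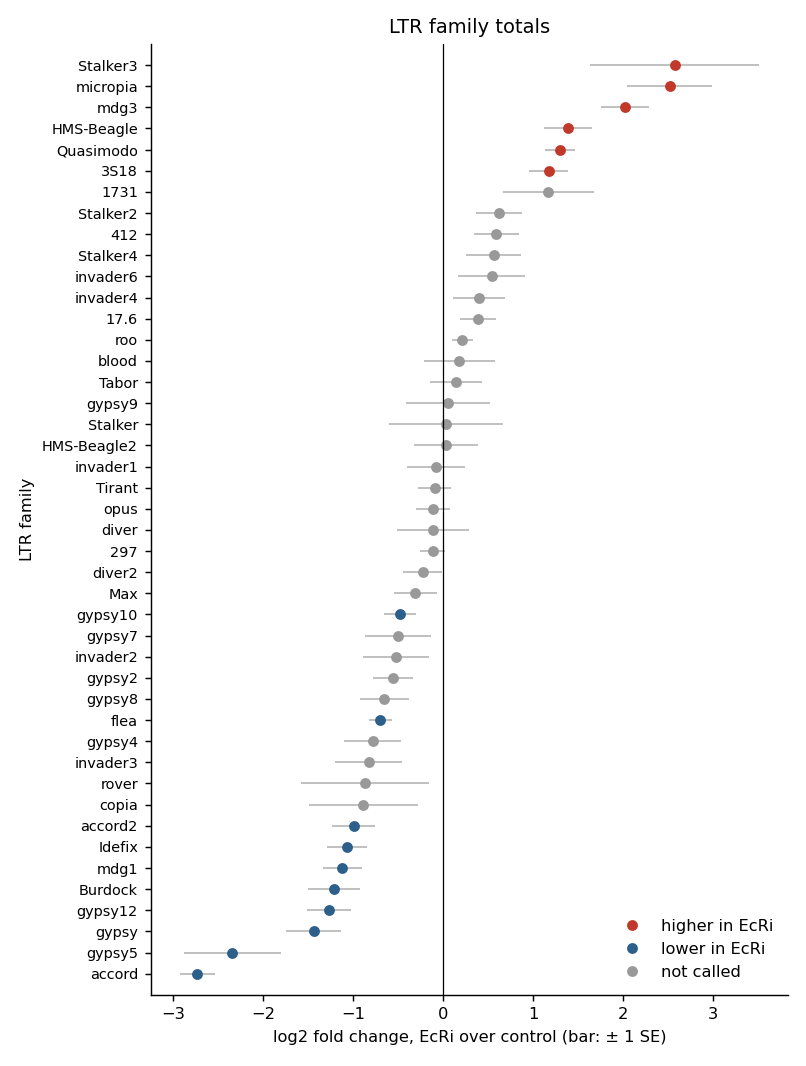
Log2 fold change of each of 44 LTR family totals, EcRi over control, with bars of 1 SE from the edgeR fit of 3 against 3 libraries. Of these, 6 families were called higher, from 1.17 for 3S18 to 2.57 for Stalker3, and 10 lower, from -2.73 for accord to -0.48 for gypsy10.

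The scaling bears on these directions. When libraries were scaled to total counts alone, the median entry of the fit moved up by 0.65 on the log2 scale, and LTR families were then called higher in 16 and lower in 2 cases. Of the 16 families called with TMM, 8 kept their call: accord, gypsy5 and the 6 that were higher. The calls of gypsy, gypsy12, Burdock, mdg1, Idefix, accord2, flea and gypsy10 were lost, and gypsy10 changed sign (0.18). Relative to the median entry these families were lower under both scalings. A change of scaling moves entries by nearly the same amount, so this outcome was fixed in advance and is no support for the calls.

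The family accord showed the largest fall among those called. It had 7.75, 5.83 and 8.49 CPM in EcRi against 56.6, 51.5 and 38.5 CPM in control intestines. The genotypes were far apart, with a log2 fold change of -2.73 ± 0.20 (SE) and an adjusted p of 3.13e-05. All of these counts came from 1 of its 3 insertions, FBti0018951, a 5225-base copy at 2R:12862330-12867554 in an intron of CG17574 and on the opposite strand. CG17574 was lower too, with 260, 249 and 218 CPM in EcRi against 624, 564 and 664 CPM in control intestines (log2 fold change -1.35 ± 0.12 SE, adjusted p = 5.38e-05). Reads of the host intron and of the element cannot be told apart without strand, whose use in the counting is not given in the sources used here.

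flea, a Gypsy family just behind roo in counts, held opposite changes. Its total was 35.9, 39.1 and 27.8 CPM in EcRi against 58.7, 53.7 and 54.4 CPM in control intestines (log2 fold change -0.70 ± 0.13 SE, adjusted p = 0.00235). Of 15 insertions tested, 9 were lower, 3 higher and 3 not called. The most abundant, FBti0018964 at 2R:23402664-23407682 outside genes, had 6.78, 7.53 and 4.97 CPM in EcRi against 14.8, 12.2 and 11.9 CPM in control intestines, a log2 fold change of -1.01 ± 0.17 (SE). FBti0019207, FBti0019212 and FBti0018963, copies of nearly the same length (5019 to 5029 bases) on chromosome arms 2L and 2R, had almost the same counts in each library, and the log2 fold changes of the 4 copies ran from -1.09 to -0.87. How reads that fit several copies were counted is not given in the sources used here, so these 4 are not separate observations. FBti0019633, a shorter copy on X, had a log2 fold change of -1.09 ± 0.20 (SE).

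FBti0019077, a 3241-base flea copy at X:17793006-17796246, went the other way. It had 6.05, 5.52 and 5.53 CPM in EcRi against 0.247, 0.211 and 0.323 CPM in control intestines. This was a log2 fold change of 4.45 ± 0.20 (SE), with an adjusted p of 3.35e-06. The copy lies on the same strand in an intron of OdsH, a homeobox gene known for its part in hybrid male sterility in sister species. OdsH itself had 6, 31 and 8 counts in EcRi and 8, 8 and 0 counts in control libraries and was too low to test, against 1472, 1710 and 1587 counts in EcRi and 49, 37 and 51 counts in control libraries on the insertion in its intron. Without this copy the flea total was 29.9, 33.5 and 22.2 CPM in EcRi against 58.5, 53.5 and 54.1 CPM in control intestines. Of the other flea copies called higher, FBti0019522 (2.21 ± 0.28 SE) lies in CG3777 and FBti0020185 (1.26 ± 0.30 SE) in Ac78C, an adenylyl cyclase gene. Both hosts were higher as well, with log2 fold changes of 2.53 for CG3777 and 0.84 for Ac78C.

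The other families called lower were far less abundant, at 2.3 CPM or less in each library except gypsy10. mdg1 had 0.94, 0.889 and 0.709 CPM in EcRi against 1.72, 2.27 and 1.53 CPM in control intestines (log2 fold change -1.12 ± 0.22 SE). Idefix, an envelope-bearing element, had 0.669, 0.595 and 0.929 CPM in EcRi against 1.41, 1.67 and 1.52 CPM in control intestines (-1.07 ± 0.22 SE). gypsy, the element for which the superfamily is named and the model of an endogenous insect retrovirus, had 0.242, 0.149 and 0.192 CPM in EcRi against 0.509, 0.662 and 0.405 CPM in control intestines (-1.44 ± 0.31 SE). In all of these the EcRi and control libraries were apart. gypsy12 (-1.27 ± 0.24 SE), accord2 (-0.996 ± 0.24 SE) and gypsy5 (-2.34 ± 0.54 SE) behaved alike, gypsy5 on 4 to 9 counts per EcRi and 12 to 34 counts per control library. Of the 2 accord2 insertions tested, the more abundant, FBti0063095, was not called (-0.23 ± 0.27 SE) and the other was lower (-1.70). gypsy10, the family called with the smallest change, had 1.90, 1.71 and 2.51 CPM in EcRi against 2.95, 2.68 and 2.90 CPM in control intestines (-0.48 ± 0.18 SE, adjusted p = 0.0466).

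Some of these low totals hold short fragments beside a gene that fell. The most abundant gypsy insertion, FBti0064217, is 155 bases long at 2L:22174048-22174202. The only other gypsy insertion tested, FBti0215302 of 7318 bases, was lower too (-1.30 ± 0.44 SE, adjusted p = 0.0343). Next to FBti0064217 lies the gypsy8 fragment FBti0060155. The main Idefix insertion FBti0019249 lies in an intron of CG3635 on the same strand, and the flea fragment FBti0060059 lies 154 bases beyond that gene. These were the tested LTR insertions in or nearest to CG3635, and all 4 were lower, with log2 fold changes of -1.59, -1.74, -1.31 and -0.65. FBti0019249 had 0.325, 0.345 and 0.603 CPM in EcRi against 0.942, 1.14 and 1.08 CPM in control intestines. CG3635 had 9.70, 10.3 and 9.06 CPM in EcRi against 19.3, 16.5 and 23.3 CPM in control intestines, a log2 fold change of -1.02 ± 0.13 (SE). Counting only insertions outside genes, the Idefix total had a log2 fold change of -0.20 and was not called. FBti0063675, the most abundant gypsy12 insertion, is a fragment of 46 bases 108 bases from Jon65Ai, a gut serine protease gene of the Jonah group, and had a log2 fold change of -1.70 ± 0.48 (SE) beside -1.67 for Jon65Ai. Its call was lost without EcRi 3 (-1.57, adjusted p = 0.0653) or control 1 (-1.56, adjusted p = 0.0503). These neighbourhoods were chosen after their values were seen.

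The Burdock total differed between genotypes through a single copy. The family had 0.291, 0.271 and 0.398 CPM in EcRi against 0.816, 0.536 and 0.879 CPM in control intestines (-1.21 ± 0.28 SE, adjusted p = 0.00712). FBti0019132, in an intron of RapGAP1, a regulator of the GTPase Rap1, on chromosome arm 2L, had 0, 4 and 0 counts in EcRi against 116, 76 and 97 counts in control libraries. RapGAP1 was not called (0.26 ± 0.10 SE). Without this insertion the Burdock total had a log2 fold change of 0.66 and was not called, so its direction turned. A second copy, FBti0062383 in an intron of stnB on X, showed the mirror image, with 39, 53 and 60 counts in EcRi and 0 in all 3 control libraries. Set against a floor of 3 counts per control library, it was at least 10.5-fold higher. Whether both genotypes carry these copies was not tested.

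Of the families called higher, mdg3 also had most of its tested copies called higher. Its total was 0.821, 0.921 and 1.04 CPM in EcRi against 0.267, 0.257 and 0.158 CPM in control intestines (2.02 ± 0.27 SE, adjusted p = 0.000438). Of its 21 insertions, 5 were tested. Of these, 4 were higher and the remaining one had a positive value. Copies share most of their sequence, and how reads that fit several copies were counted is not given. The 5 are therefore not separate observations. The family had only 53, 45 and 25 counts in control libraries, so a copy may have passed the filter through EcRi alone. The most abundant was FBti0019301 near corto on 3R, with 0.390, 0.449 and 0.515 CPM in EcRi against 0.161, 0.143 and 0.0317 CPM in control intestines. FBti0020171, a copy of 5520 bases on 3L outside genes, had a log2 fold change of 2.91 ± 0.41 (SE), and FBti0019281 (1.74 ± 0.40 SE) lies in CG14636, which was itself higher (1.96 ± 0.15 SE).

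3S18 had the most counts of the families that rose. It had 12.3, 12.4 and 11.9 CPM in EcRi against 7.27, 5.06 and 3.88 CPM in control intestines (1.17 ± 0.21 SE, adjusted p = 0.00248). Its 2 main insertions, FBti0062016 and FBti0062015, are neighbouring pieces at 3L:5115368-5119249 and 3L:5119260-5122056 with nearly equal counts. FBti0062016 had 4.75, 4.94 and 4.62 CPM in EcRi against 2.82, 1.84 and 1.48 CPM in control intestines. FBti0018869, a copy of 6130 bases in GEFmeso on 2R, was higher by 0.85 ± 0.23 (SE), and 5 of the 8 tested insertions were called higher with none lower. GEFmeso, a gene for a guanine nucleotide exchange factor, was higher by 0.53 ± 0.09 (SE).

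The Quasimodo and HMS-Beagle totals were higher through 1 insertion each. Quasimodo had 2.65, 3.14 and 2.68 CPM in EcRi against 1.28, 1.15 and 1.01 CPM in control intestines (1.30 ± 0.16 SE, adjusted p = 0.000337). Its fragment FBti0061663 of 659 bases, at 2R:4543280-4543938 and 2753 bases from the kinase gene Stlk, had 1.57, 2.26 and 1.67 CPM in EcRi against 0.0756, 0.114 and 0.0887 CPM in control intestines (4.30 ± 0.27 SE). Stlk was not called (-0.17 ± 0.11 SE), and without the fragment the Quasimodo total had a log2 fold change of -0.10 and was not called. HMS-Beagle had 0.464, 0.556 and 0.402 CPM in EcRi against 0.217, 0.165 and 0.158 CPM in control intestines (1.39 ± 0.27 SE, adjusted p = 0.00293). Its copy FBti0019143 on 2L had 0.370, 0.384 and 0.307 CPM in EcRi against 0.0857, 0.0685 and 0.0380 CPM in control intestines, and without it the total had a log2 fold change of 0.05 and was not called.

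micropia and Stalker3 were called on few counts. micropia had 35, 23 and 33 counts in EcRi against 3, 4 and 3 counts in control libraries (2.52 ± 0.47 SE, adjusted p = 0.0025). FBti0061048, a fragment of 507 bases on 3L, supplied 29, 19 and 26 of the EcRi counts and none in control libraries, at least 5.29-fold higher against the same floor. Stalker3 had 28, 35 and 21 counts in EcRi against 9, 0 and 0 counts in control libraries (2.57 ± 0.94 SE, adjusted p = 0.046). Its call was lost when any library other than control 1 was left out, with log2 fold changes of 2.48, 2.49, 2.77, 2.03 and 2.08 without EcRi 1, 2 and 3 and control 2 and 3. Without control 1, which held all control counts, the fitted value was 7.56 with the call kept, and it is no measure of size because the other controls were at 0. The second Copia family, whose transcripts are known to fall in cultured cells given ecdysone, had 0.131, 0.0873 and 0.241 CPM in EcRi against 0.0756, 0.0399 and 0.0886 CPM in control intestines. The genotypes overlapped and the family was not called (1.17 ± 0.51 SE, adjusted p = 0.0784), but it was without EcRi 2 (1.47, adjusted p = 0.0409).

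**Figure D3:**
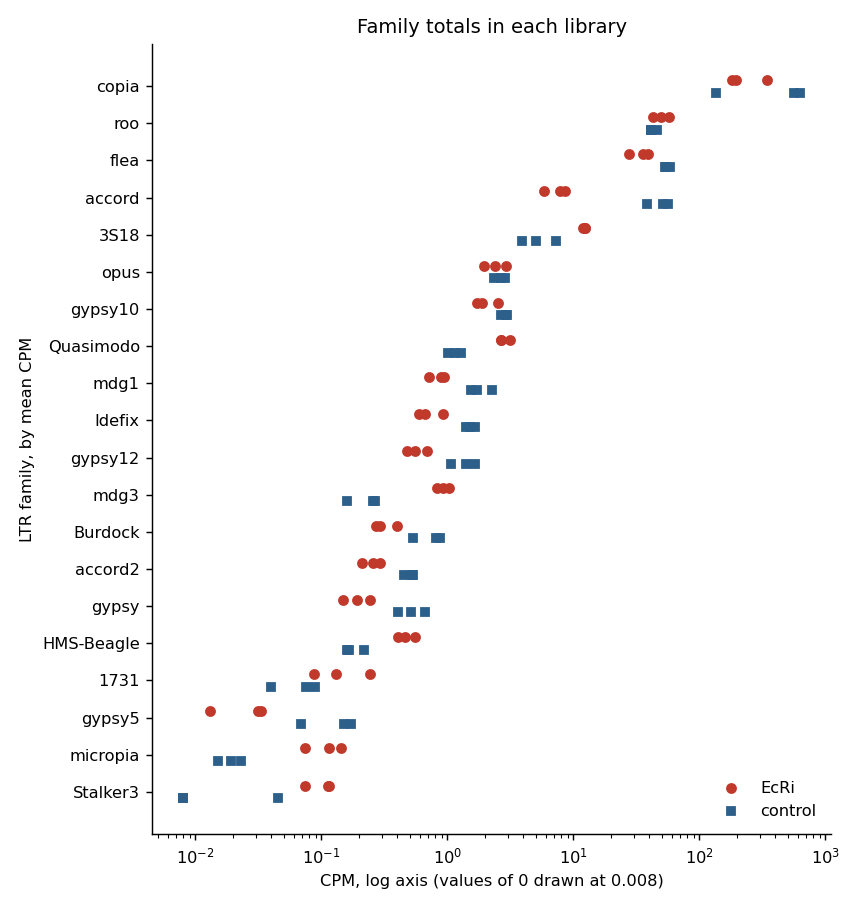
TMM-scaled CPM of LTR family totals in each of 3 EcRi and 3 control libraries, on a log axis, for the 16 families called and for copia, roo, opus and the second Copia family. EcRi and control points are apart in all 16 called families and overlap in the other 4.

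copia had the most counts of the LTR families. It had 194, 341 and 183 CPM in EcRi against 566, 626 and 136 CPM in control intestines. Control 3 held the lowest value of all libraries, and the family was not called (-0.89 ± 0.61 SE, adjusted p = 0.254). Without control 3 it was called lower (-1.31, adjusted p = 0.00968). Per kilobase of annotated sequence, copia had 1.61 CPM in EcRi and 2.99 CPM in control intestines, against 0.0475 and 0.041 CPM for roo. accord had 1.24 CPM per kilobase in EcRi and 8.24 CPM per kilobase in control intestines, below copia in EcRi and above it in control intestines.

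Copies of copia differed from each other. FBti0059745, at 2L:20157413-20164268 outside genes and overlapping 2 other annotated elements, held 43.1% of copia counts. It had 111, 185 and 95.6 CPM in EcRi and 194, 197 and 53.6 CPM in control intestines, with overlap (-0.18 ± 0.55 SE). FBti0019110, 860 bases from CG31949 on 2L, had 2.26, 5.92 and 2.51 CPM in EcRi against 88.5, 109 and 13.1 CPM in control intestines (-4.30 ± 0.95 SE, adjusted p = 0.0114). It was lower in all EcRi libraries than in any control library, but missed the threshold without EcRi 1 (-4.06, adjusted p = 0.0676). FBti0020031 lies in an intron of Eip63E, a cyclin-dependent kinase gene first found as ecdysone-induced. It had 5.32, 8.43 and 4.20 CPM in EcRi against 43.6, 47.1 and 15.8 CPM in control intestines (-2.57 ± 0.51 SE, adjusted p = 0.0071), whereas Eip63E differed by 0.06 ± 0.08 (SE). FBti0019050 on X was lower too (-1.05 ± 0.35 SE, adjusted p = 0.0375), a call lost without EcRi 1, EcRi 3 or any one control library, with adjusted p of 0.0734 to 0.117. Control 3 was the lowest of the control libraries for FBti0059745, FBti0019110 and FBti0020031. Of 28 copia insertions tested, 24 had negative values, 3 were called lower and 1 higher.

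Single insertions were tested in a fit of the table as deposited. Of 285 LTR insertions, 58 were higher in EcRi, 37 lower and 190 not called, with a median log2 fold change of 0.32. That fit covered 12193 entries with a median of 0.03 and called 30.1% of them higher and 29.3% of them lower, so the LTR shares of 20.4% and 13% were again below the background. Other element insertions gave 79 higher and 65 lower of 523 tested, with a median of -0.02. Of the 95 LTR insertions called, the genotypes did not overlap in 94. With 3 libraries against 3 the call itself makes this likely, and the share over all called entries is not given here. BEL-Pao insertions were 35 higher and 2 lower of 123 (median 0.69), Gypsy insertions 21 higher and 32 lower of 133 (median -0.01) and Copia insertions 2 higher and 3 lower of 29 (median -0.58). The median over all LTR insertions depended on the filter. With at least 10 counts in every library it was 0.0085, with 33 higher and 30 lower of 162 tested. With no filter it was 0.19, with 50 higher and 46 lower of 797. Of the 58 higher calls, 51 had means under 1 CPM in both genotypes.

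roo, the family with most insertions, accounted for 29 of the 58 higher calls and for 105 of the 285 LTR insertions tested. Its share called higher, 27.6%, was below the 30.1% of all entries in the same fit. Of 105 roo insertions tested, 97 had positive values, 29 were higher and none lower at an adjusted p of 0.05, with a median of 0.70. DESeq2 called 19 and limma-voom 27 higher, both with none lower. The count depended on scaling and threshold, with 77 higher and a median of 1.34 under total-count scaling and 6 higher at an adjusted p of 0.01. Under total-count scaling the roo total was also higher (0.86, adjusted p = 0.000768). Leaving out 1 library gave 13 to 23 higher and none lower: 15, 16 and 18 without EcRi 1, 2 and 3, and 13, 23 and 17 without control 1, 2 and 3. The medians then ran from 0.63 to 0.84. The 112 roo copies of at least 4000 bases had a median length of 9092 bases and share most of their sequence, so they are not separate observations.

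The roo total did not show the positive values of most roo insertions. It was 49.2, 57.0 and 42.7 CPM in EcRi against 41.4, 45.9 and 41.3 CPM in control intestines, with overlap and no call (0.21 ± 0.12 SE, adjusted p = 0.149), although it was called without EcRi 3 (0.32, adjusted p = 0.0308). FBti0019148, at 2L:10946999-10956155 in an intron of dpr2 and on the opposite strand, took 61% of roo counts. It had 29.2, 32.8 and 21.9 CPM in EcRi and 30.1, 30.5 and 28.8 CPM in control intestines and was not called (-0.09 ± 0.14 SE). dpr2, a gene for a neuronal cell surface protein, had at most 4 counts in any library. The other 139 roo insertions summed to 20.04, 24.1 and 20.7 CPM in EcRi against 11.4, 15.4 and 12.5 CPM in control intestines, with no overlap. In the family fit without FBti0019148 roo was called higher (0.73, adjusted p = 0.00227), and with insertions outside genes only its value was 0.78 (adjusted p = 0.00539). The most abundant of the called roo copies were FBti0020055 on 3L (0.93 ± 0.34 SE, adjusted p = 0.0488) and FBti0059769 in CG42747 (0.81 ± 0.20 SE, adjusted p = 0.00887). The call on FBti0020055 was lost without EcRi 2 or 3 or any one control library, with values of 0.64 to 1.13.

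**Figure D4:**
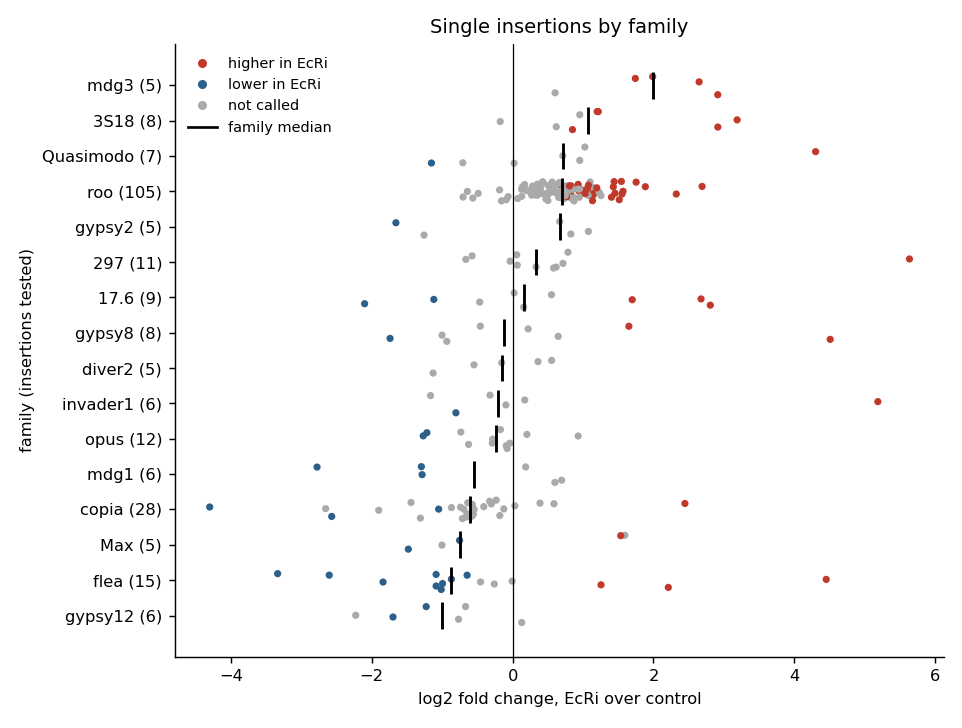
Log2 fold change of single insertions, EcRi over control, for the LTR families with at least 5 insertions tested (number in brackets), 1 point per insertion, black lines at family medians. Of 105 roo insertions, 97 lie right of 0, while flea spans from -3.34 to 4.45.

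**Figure D5:**
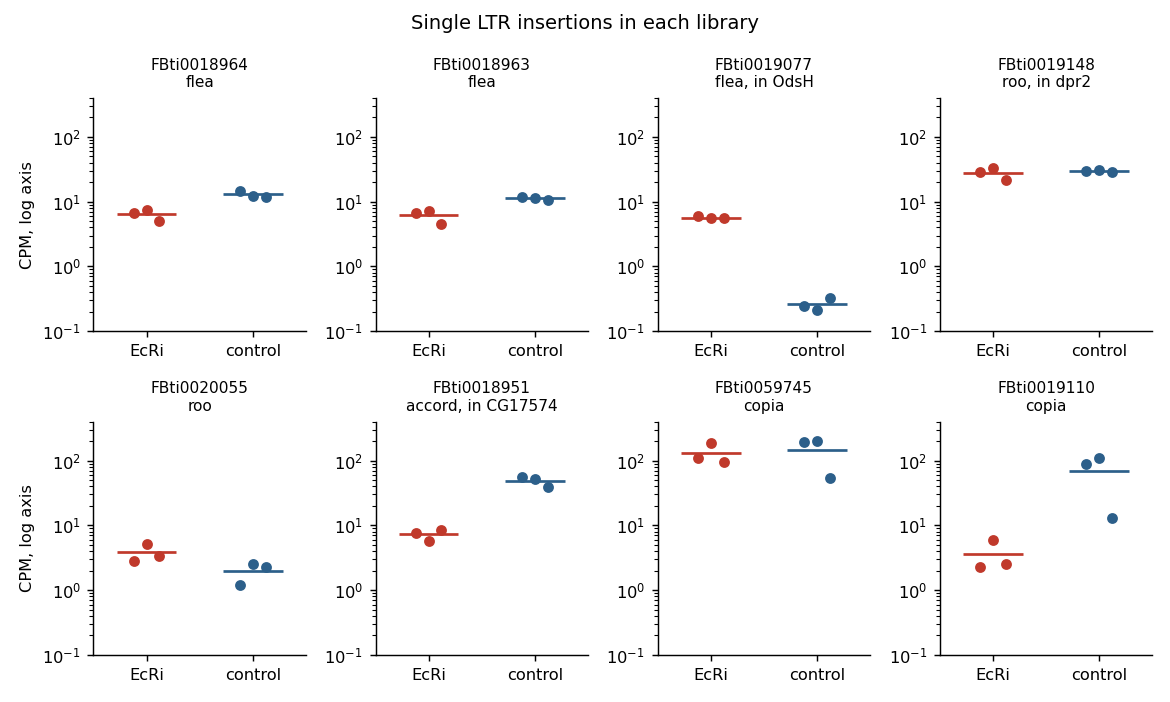
TMM-scaled CPM of 8 single LTR insertions in 3 EcRi and 3 control libraries, log axis, lines at group means. The flea copy FBti0019077 in OdsH had 5.52 to 6.05 CPM in EcRi and 0.211 to 0.323 CPM in control libraries, while flea copies FBti0018964 and FBti0018963 were lower in EcRi and roo FBti0019148 overlapped.

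opus, a Gypsy family among the 6 with most counts, was not called. It had 2.93, 2.39 and 1.95 CPM in EcRi and 2.64, 2.32 and 2.88 CPM in control intestines (-0.11 ± 0.19 SE, adjusted p = 0.629), with overlap. Its sign turned under total-count scaling (0.54) and without EcRi 3 (0.03). Its main copy FBti0019042 lies in tei on 2R and was not called either (-0.04 ± 0.23 SE), while tei was lower (-1.17). The 28 families not called ran from -0.89 for copia to 1.17 for the second Copia family.

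Calls by length were described without a test. Over all entries of the same fit, 30.1% were higher and 29.3% lower. Insertions of at least 4000 bases numbered 523 and took 94.0% of LTR counts. Of these, 215 were tested, with 47 higher and 21 lower and a median of 0.43. The 468 insertions under 500 bases gave 32 tested, of which 1 was higher and 9 lower, with a median of -0.50. Their share called lower was near that of all entries, and their share called higher was below it. The lower ones include FBti0064217, FBti0060155 and FBti0019249 in or beside CG3635, and FBti0063675 near Jon65Ai. Length and family are linked, since 102 of the 215 long insertions tested were roo.

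Position relative to genes was described from the annotation. Outside genes lay 690 insertions, of which 116 were tested and 24 were higher and 20 lower. Inside a gene on its own strand lay 243 insertions (75 tested, 19 higher, 6 lower), and 302 lay on the opposite strand (94 tested, 15 higher, 11 lower). The 12 Y-linked insertions summed to 0.585 to 0.772 CPM in EcRi and 0.674 to 0.931 CPM in control libraries, and none of 2 tested was called. Across 144 insertions whose host gene was tested too, fold changes of insertion and host were weakly related (Pearson r = 0.064, Spearman rho = 0.108). These pairs share libraries, depth and in part reads, and the values are a description.

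In those 144 pairs the insertion was called in 43, the host in 84 and both in 29. Of these 29, 20 had the same sign: 10 of 13 on the same strand and 10 of 16 on the opposite strand. How many would agree without a link was not worked out, so the count is a description. Examples chosen after their values were seen show both the same and the opposite sign. The Gypsy-type copy FBti0020086 in dpr6, a gene of the same protein family as dpr2, had 0.185, 0.132 and 0.125 CPM in EcRi against 0.0252, 0.0228 and 0.0127 CPM in control intestines (2.81 ± 0.42 SE), and dpr6 was higher by 3.28 ± 0.48 (SE). The opposite held for the gypsy8 fragment FBti0061020 in AGO3, an Argonaute gene of the germline piRNA pathway. That fragment was higher (1.65 ± 0.53 SE) while AGO3 had 0.900, 1.04 and 0.798 CPM in EcRi against 4.12, 4.36 and 3.52 CPM in control intestines (-2.13 ± 0.17 SE).

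Genes known to silence LTR elements were tested in the fit in which 31.1% of all genes were higher and 30.6% lower. Of 5 siRNA genes, r2d2 (-0.57 ± 0.08 SE) and loqs (-0.72 ± 0.08 SE), which encode double-stranded RNA-binding partners of Dicer, were lower and none was higher, and Dcr-2 and AGO2 were not called. Of 16 somatic and shared piRNA genes tested, 4 were higher (piwi, SoYb, daed and arx) and 4 lower (fs(1)Yb, ctp, mael and papi). piwi, the nuclear Argonaute of the pathway, had 1.61, 1.59 and 1.89 CPM in EcRi against 0.706, 1.08 and 0.507 CPM in control intestines (1.15 ± 0.28 SE, adjusted p = 0.009). fs(1)Yb, needed for piRNA production in ovarian somatic cells, had 0.123, 0.119 and 0.251 CPM in EcRi against 0.988, 1.10 and 0.824 CPM in control intestines (-2.55 ± 0.34 SE). armi had no counts in any library. All of the changed genes of this list other than ctp and papi were under 5 CPM.

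Of 14 germline piRNA genes tested, krimp, tej, cuff and squ were higher and AGO3, tapas and vls lower. Of 13 chromatin factors, wde and su(Hw) were higher and Hdac1 lower. As shares of genes tested, both lists lay below that background in both directions. su(Hw), whose protein binds an insulator inside the gypsy element, was higher by 0.56 ± 0.09 (SE). Of the genes listed as germ line markers, 3 of 6 tested were higher (bam, ovo and bru1). The list summed to 33.6 to 44.7 CPM in EcRi against 19.5 to 23.5 CPM in control libraries. Most of that sum was bru1, with a mean of 23.5 CPM in EcRi and 10.2 CPM in control libraries, and stwl. stwl had means of 10.6 and 10.1 CPM and was not called, and neither was bgcn. Whether the counts on ovo and bru1 came from germ cells was not tested. bam had only 20, 20 and 16 counts in EcRi and 0, 6 and 0 counts in control libraries. The defining gene vas had 0.0657, 0.0161 and 0.150 CPM in EcRi and 0.0605, 0.0343 and 0.0444 CPM in control libraries, osk was nearly at 0 and nos had no match in the table. The part of these genes in the LTR results was not tested.

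The loci known as sources of piRNAs against LTR elements were looked at after the other values were seen. flam, the locus on X that feeds the piRNA pathway of ovarian follicle cells, had 2, 7 and 2 counts in EcRi and 9, 12 and 20 counts in control libraries and was too low to test. The 32 listed LTR insertions within it summed to 0.189, 0.210 and 0.160 CPM in EcRi and 0.277, 0.240 and 0.184 CPM in control intestines, with overlap (exact permutation p = 0.3). Between Pld and jing on 2R, the interval of a large germline piRNA cluster, the 32 listed insertions of 15 families summed to 0.707, 1.27 and 0.937 CPM in EcRi against 0.443, 0.474 and 0.520 CPM in control intestines. These did not overlap (log2 difference 0.98, exact permutation p = 0.1), and of 5 insertions tested 3 were higher and 1 lower. The sum rested on the invader1 copy FBti0060253, which had 60, 245 and 74 counts in EcRi against 0, 5 and 1 counts in control libraries. Without it the interval had 0.460, 0.475 and 0.679 CPM in EcRi and 0.443, 0.445 and 0.513 CPM in control intestines, with overlap (log2 difference 0.18, exact permutation p = 0.5).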

How the data were processed

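The study sequenced mRNA libraries (SMARTer kit) from whole intestines, 3 EcRi and 3 control. By the methods, reads were trimmed with Trim Galore!, aligned with HISAT2 to the fly genome (dm6) and counted with featureCounts on Galaxy. The unit is raw counts per gene or element insertion, as deposited by the authors. How featureCounts treated strand and reads that fit several places is not given in the sources used here. Extraction is given as a Qiagen kit in the labels and as TRIZOL in the methods.

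Element names, positions and host genes came from the Ensembl BDGP6 annotation, and 2 insertion entries had no name there. No sequences are printed. Counts were fitted with edgeR 4.0.16 (R 4.3.3; filterByExpr, TMM, robust quasi-likelihood test), once with the deposited entries and once with each element family summed, and p-values were adjusted by Benjamini-Hochberg over all entries tested (threshold 0.05). Sums were compared by two-sided exact permutation tests. CPM used TMM-scaled library sizes. Alternatives were DESeq2 1.42.0, limma 3.58.1 (voom), RLE factors, total-count scaling, no filter, at least 10 counts in every library, adjusted p below 0.01, the replicate block, each library left out, families without their most abundant insertion and insertions outside genes.

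Named were families called (up to 15 by size of change), the 6 most abundant families, 1731 (the second Copia family), the most abundant insertion of each, the 10 called insertions with the largest rise and fall with no overlap and a mean of at least 1 CPM in a genotype, called silencing genes, and host genes. gypsy10 and items marked as chosen after seeing values fall outside this rule. Members and lists were chosen with earlier results of these data known. Same-numbered libraries did not deviate together (correlations -0.059, 0.038 and -0.059), so numbers were not taken as pairs. The edgeR p-values set the difference between genotypes against the spread between these libraries, moderated over all entries. The permutation p-values rank that difference among relabellings of the 6 libraries.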

Additional observations from a re-analysis of the deposited data

How the results depend on the processing

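Of 312 comparisons of named families with an alternative, 284 kept direction and side of the threshold, 16 lost their call, 8 gained one and 4 changed sign. Of 401 for named insertions these numbers were 358, 30, 3 and 10. Scaling to total counts gave 16 families higher and 2 lower and 125 insertions higher and 12 lower, and moved the median of all entries from 0.03 to 0.68. It turned opus (0.54), FBti0063095 (0.42), FBti0059745 (0.42), FBti0019148 (0.56) and FBti0019042 (0.61). With at least 10 counts in every library 33 insertions were higher and 30 lower, and FBti0019042 was at 0.015. At an adjusted p of 0.01, 31 insertions were higher and 19 lower. Without its most abundant insertion, Quasimodo was at -0.10 and Burdock at 0.66.

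With the replicate block, 6 families were higher and 9 lower, 45 insertions were higher and 33 lower, and the difference of all LTR insertions stayed at -0.66. Leaving out 1 library gave 5 to 6 families higher, 9 to 11 lower, 45 to 51 insertions higher, 27 to 52 lower (52 without control 3) and a difference of all LTR insertions of -1.12 to -0.42. The 4 uncalled items that changed sign without a library were opus (-0.26 to 0.032), FBti0059745 (-0.58 to 0.075), FBti0019148 (-0.22 to 0.060) and FBti0019042 (-0.20 to 0.077), all without EcRi 3 and FBti0059745 also without control 1 or 2. Without copia, accord and flea, an alternative chosen after seeing the data, that difference was 0.18. The causes were not tested. The median level of the tested LTR insertions was 0.119 CPM, and counts on similar copies depend on how reads with several places were assigned.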

Other observations

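Some LTR families of the annotation were not on the list. Their totals were looked at after the other values were seen. rooA, a relative of roo, had 0.460, 0.365 and 0.548 CPM in EcRi against 2.22, 3.29 and 1.99 CPM in control intestines, and the edgeR fit of families called it lower (-2.45 ± 0.26 SE, adjusted p = 0.000151), opposite in sign to most roo insertions. springer had 0.542, 0.475 and 0.402 CPM in EcRi against 0.186, 0.171 and 0.146 CPM in control intestines (1.49 ± 0.26 SE, adjusted p = 0.0017). GATE was higher too (1.26 ± 0.33 SE, adjusted p = 0.0113). Transpac was lower (-1.69 ± 0.58 SE, adjusted p = 0.0357). ZAM, an envelope-bearing relative of Idefix, had 0.308, 0.255 and 0.332 CPM in EcRi and 0.322, 0.285 and 0.291 CPM in control intestines, with overlap and no call.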
